A study of Mus musculus with 2 samples.

Results

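Classical monocytes were defined in single-cell RNA profiles of mouse alveolar bone, the jaw bone that holds the tooth sockets, chosen by a rule on their measured transcript counts. A barcode was a member if it held at least 1000 unique molecular identifiers (UMIs, each marking 1 captured RNA molecule) with at most 20% of them mitochondrial, and at least 1 UMI for 3 or more of the 5 genes Ly6c2, Ccr2, F13a1, Ms4a4c and Ms4a6c. It also had at most 1 UMI of C1qa, C1qb and C1qc together, at most 2 UMIs of the MHC class II genes H2-Aa, H2-Ab1 and H2-Eb1 together and none of Siglech. The azurophil granule genes Mpo, Elane, Prtn3 and Ctsg, and the specific granule genes Camp, Ngp and Ltf, each had to stay under 1% of UMIs. The rule found 840 cells among the 21809 barcodes of the cell filter. Library 1 gave 379 of 9365, a share of 4.05% with an exact 95% Clopper-Pearson interval of 3.66% to 4.47%, and library 2 gave 461 of 12444, or 3.70% with an interval of 3.38% to 4.05%.

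The animals were healthy C57BL/6J mice of 6 to 8 weeks. In the force group a nickel-titanium coil spring pulled the upper right first molar forward at 25 g, and in the control group the spring was attached without force. On day 7 the molar was extracted and bone within 1 mm of its socket was collected, with 6 of the 12 mice pooled per group. The labels do not tie either library to a group, so the libraries are given side by side by number and no value below compares force with control. Each library is 1 pool with no replicate, and all intervals cover counting error only.

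Classical monocytes are made in the bone marrow from progenitors shared with granulocytes, leave it through the chemokine receptor CCR2, circulate with high Ly6C on their surface, and enter inflamed tissue, where they can become macrophages or dendritic cells. In bone they are of interest because cells of the same lineage fuse into osteoclasts under the cytokines M-CSF and RANKL. Type I interferons, a family of antiviral cytokines, switch on a shared set of genes in most cells that sense them.

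The rule genes describe the choice and are no finding. Ly6c2, which encodes the Ly6C surface protein, stood at 3402 counts per 1000000 UMIs (CPM) in the summed monocytes of library 1 and at 4147 in library 2. Ccr2 stood at 271 and 409 CPM, F13a1, the A subunit of coagulation factor XIII, at 660 and 750 CPM, Ms4a4c at 333 and 261 CPM, and Ms4a6c at 564 and 650 CPM. A UMI of Ccr2 was found in 72.8% and 81.3% of the monocytes, against 1.33% and 1.38% of B-lineage cells, which should lack it. The median depth was 8335 and 7454 UMIs in monocytes and 2697 and 2364 in B-lineage cells. After every cell was thinned to 1000 UMIs the Ccr2 shares were 26.9% and 33.4% of monocytes against 0.148% and 0.230% of B-lineage cells. Ly6c2 was less selective, with a UMI in 96.4% and 97.9% of granulocyte-monocyte progenitors. These were cells with at least 1% of UMIs in the azurophil genes and under 1% in the specific granule genes. That rule can take in promyelocytes of the granulocyte line, so the group is not limited to progenitors shared with monocytes.

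Cells near the limit of the rule differed from those well inside it. Of the members, 93 and 91 had a UMI of exactly 3 rule genes, 114 and 138 of 4, and 172 and 232 of all 5. A further 278 and 227 cells met every other condition with exactly 2. Lyz2, the lysozyme of monocytes and macrophages, which the rule did not use, stood at 456 and 770 CPM in cells with 2 rule genes, at 2911 and 4325 with 3, at 4752 and 4825 with 4 and at 7024 and 10456 with 5. Col1a1, a collagen of bone-forming cells, stood at 18519 and 6146 CPM with 2 rule genes, at 10321 and 3618 with 3, at 2121 and 272 with 4 and at 842 and 1109 with 5. Cells with 3 rule genes thus carried more collagen RNA and less Lyz2 than those with 4 or 5 in both libraries. Cells with fewer rule genes were also shallower. Median depths were 5276 and 5131 UMIs with 3, 7488.5 and 7295 with 4 and 10455.5 and 8747.5 with 5. The part of depth in these levels was not tested. The MHC class II limit alone kept out 73 and 90 cells, and the azurophil limit alone kept out 35 and 133.

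**Figure D1:**
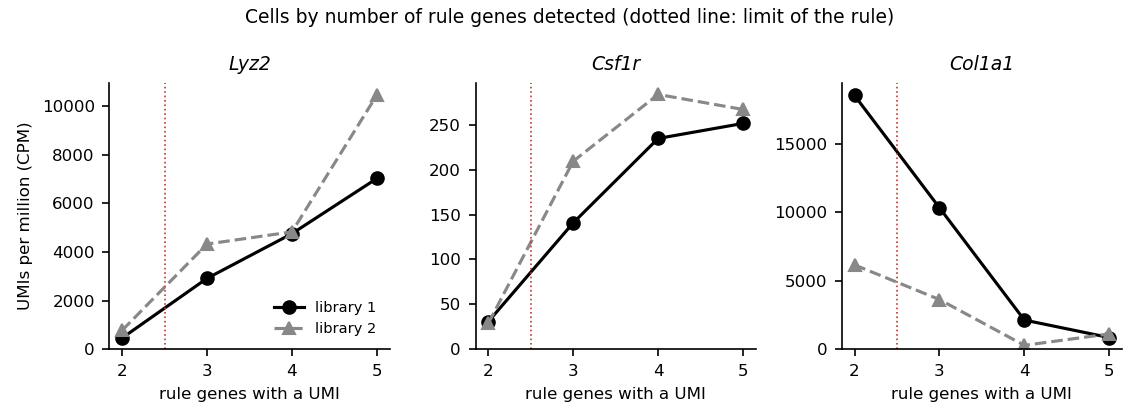
Levels (CPM) of Lyz2, Csf1r and Col1a1 in summed cells that met all other conditions of the rule, by the number of rule genes with a UMI, for library 1 (black) and library 2 (grey). Lyz2 and Csf1r are lowest and Col1a1 is highest in the cells with 2 rule genes, left of the dotted limit.

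The depth and quality of the members were close to each other in the libraries, with medians of 2786 and 2667 genes and 1.43% and 1.67% mitochondrial UMIs per cell. The libraries shared 75 barcodes of the cell filter and 0 monocyte barcodes. Some members carried transcripts of another lineage. After thinning to 1000 UMIs, 63 and 38 monocytes held 5 or more UMIs of 7 stroma and bone genes, 1 and 37 held as many of the 7 erythroid genes, and 4 and 3 of the 5 megakaryocyte genes. In all, 74 (19.5%) and 76 (16.5%) members carried such a mark. Barcodes of at most 100 UMIs, called empty here, held the stroma and bone list at 44145 and 37307 CPM, against 11291 and 4931 CPM in the monocytes. They held the erythroid list at 7134 and 44310 CPM, against 517 and 1924 CPM. Neutrophil markers summed to 3664 and 3452 CPM in the monocytes and to 39142 and 43765 CPM in empty barcodes, with Ly6g, a defining neutrophil gene, at 2.57 and 2.16 CPM. Basophil and mast cell genes came almost wholly from 2 and 3 cells, which held 87.8% and 98.2% of that list's UMIs. In 13 and 6 members Trac, Cd3d and Cd3e, genes of the T-cell receptor complex, together had 2 or more UMIs. The part of such cells in each result was not tested, and printed levels that moved by more than 1.5 times without these members (the marked members below, an alternative chosen after seeing the data) are given with the gene. Without them Col1a1 stood at 523 and 230 CPM in the monocytes, instead of 2966 and 1203 CPM.

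Beyond the rule, the label was checked against 18 monocyte genes. All 18 were measured, and 14 were at least 2-fold above empty barcodes in both libraries. The share of all genes at that limit was not computed, here or for the lists below, so such counts describe the list only. Lyz2 stood at 5596 and 7835 CPM, against 1983 and 2174 CPM in empty barcodes. By the lower CPM of the libraries, Lyz2 was second to the ferritin gene Fth1 among genes that encode neither mitochondrial nor ribosomal proteins. Fth1 stood at 9011 and 6280 CPM, so in library 2 Lyz2 was above it. Csf1r, the receptor for M-CSF, stood at 226 and 264 CPM. Plac8, which is high in young monocytes and granulocytes, stood at 1501 and 1897 CPM, and Cd14, a co-receptor for bacterial lipopolysaccharide, at 1790 and 1131 CPM. Genes listed for the non-classical monocyte class varied in level. Ace stood at 2.57 and 17.7 CPM, Treml4 at 11.3 and 11.7 CPM and Cd300e at 1.03 and 0.649 CPM, whereas Nr4a1, a transcription factor on which that class depends, stood at 387 and 406 CPM, Pou2f2 at 237 and 178 CPM and Gngt2 at 79.9 and 114 CPM. Cx3cr1, the fractalkine receptor, which both classes carry, stood at 33.1 and 53.6 CPM. Cd209a, a mark of monocytes that lean towards dendritic cells, had 17 and 39 UMIs in all, and after thinning only 2 and 2 members held one, so no split by it was possible. Xist was present at 288 and 264 CPM, and of the Y-linked genes Eif2s3y and Kdm5d had no UMI in the monocytes, Uty had 4 and 3 UMIs and Ddx3y had 22 and 32 UMIs, or 5.65 and 6.92 CPM, against 5.19 and 4.68 CPM in empty barcodes.

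The monocytes were set beside C1q macrophages of the same bone, cells under the same granule limits with 5 or more UMIs of C1qa, C1qb and C1qc (139 and 201 cells). A gene was called where it differed at least 2-fold in the same direction in both libraries and had at least 20 UMIs in the higher population of each. Under 3 UMIs in the lower population were set to 3. Of 9674 genes tested, 1517 (15.7%) were higher in monocytes, and of 5903 tested, 607 (10.3%) were lower. The populations were cut by genes, so these counts describe them and carry no test. The median gene was 0.29 and 0.33 higher in monocytes on the log2 scale. When each library was centred on that median, 848 genes were higher and 806 lower, so that the higher genes were 51.3% of calls instead of 71.4%.

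Genes for homing, clotting and matrix were among those leading the monocyte side. Itgb7, an integrin chain for homing, stood at 181 CPM (95% Poisson interval 167 to 194) and 273 CPM (258 to 288) in monocytes and at 8.52 and 17.8 CPM in macrophages. F10, coagulation factor X, stood at 506 and 356 CPM against 9.37 and 8.55 CPM, a 54.0-fold and a 41.6-fold difference. Vcan, the matrix proteoglycan versican, stood at 360 and 112 CPM against 5.11 and 2.63 CPM, and Fn1, fibronectin, at 672 and 425 CPM against 43.4 and 13.2 CPM. Monocytes were thus far above macrophages in both libraries for each of these genes. Of 14 genes for coagulation, adhesive matrix and proteases, 9 were at least 2-fold higher in monocytes (15.7% of all genes) and 0 of 8 tested were lower (10.3%). Both counts of list genes were the same after centring. The median of that list was 2.27 and 1.81 higher on the log2 scale. Among the other leading genes, Saa3, an acute-phase serum amyloid, stood at 1115 and 200 CPM against 16.2 and 0.658 CPM, Itga1, a collagen-binding integrin chain, at 76.8 and 94.7 CPM against 0 and 0.658 CPM, and Nrg1, neuregulin, at 152 and 145 CPM against 5.96 and 2.63 CPM. Gpr141 and Ly6a2 were 23.1-fold and 33.8-fold, and 17.6-fold and 31.4-fold higher. Prss34 and Mcpt8, basophil proteases, were also among the leading 10, at 125 and 501 CPM and at 49.3 and 201 CPM. Without cells that carried markers of another lineage, basophils or T cells included, Prss34 stood at 5.66 and 2.82 CPM and Mcpt8 at 3.77 and 5.13 CPM.

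**Figure D2:**
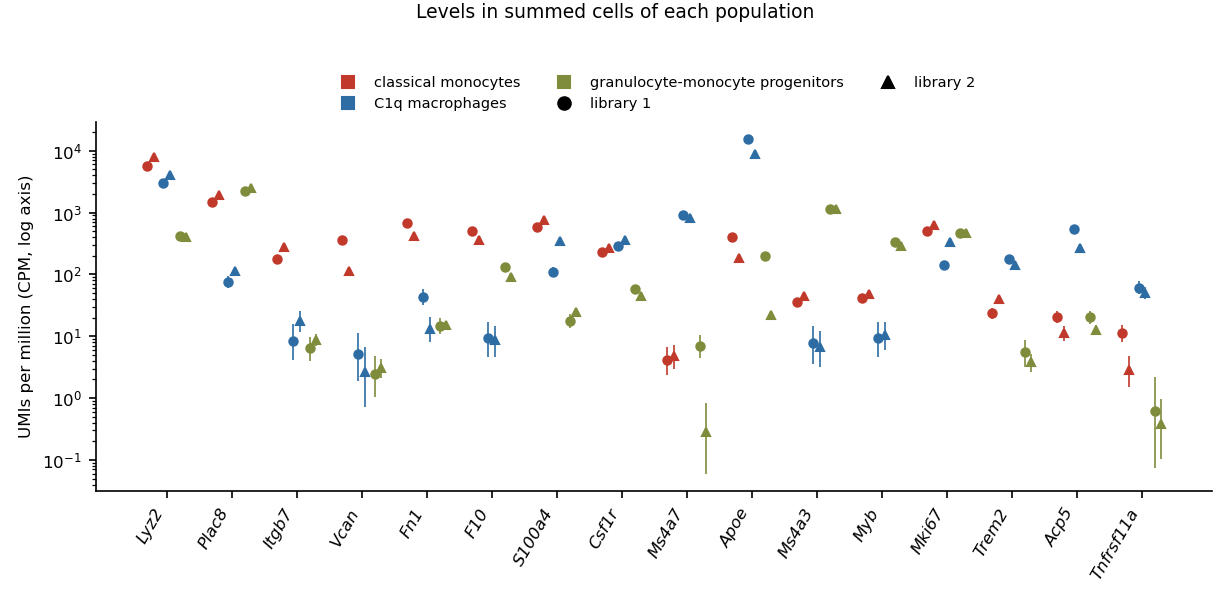
Levels (CPM, log axis) of 16 genes in summed classical monocytes (red), C1q macrophages (blue) and granulocyte-monocyte progenitors (green) of library 1 (circles) and library 2 (triangles), with 95% Poisson intervals. Itgb7, Vcan, Fn1 and F10 are highest in monocytes, Ms4a7, Apoe, Trem2, Acp5 and Tnfrsf11a in macrophages, and Ms4a3 and Myb in progenitors.

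On the other side stood genes of settled macrophages and of secreted chemokines. All 12 tissue macrophage markers tested outside the rule were lower in monocytes, where 10.3% of all genes tested were, with Apoe, apolipoprotein E, at 401 and 182 CPM against 15310 and 8906 CPM, Mrc1, the mannose receptor, at 6.17 and 4.98 CPM against 445 and 536 CPM, and Timd4 at 0 UMIs. Ms4a7, a membrane protein of mature macrophages, stood at 4.11 and 4.76 CPM against 922 and 819 CPM. The chemokine genes Ccl7, Ccl8 and Ccl12 were among the 10 most unequal. Ccl7 stood at 25.2 and 3.24 CPM (13.5 and 2.05 CPM without the members marked for another lineage, basophils or T cells) against 4588 and 2014 CPM, and Ccl8 at 1.28 and 0 CPM (5 and 0 UMIs, and 2 and 0 without the marked members) against 1715 and 161 CPM. Of 19 chemokine, cytokine and growth factor genes tested, 10 were lower in monocytes than in macrophages and 0 of 18 were higher, at medians of -1.42 and -1.25 on the log2 scale. Tnf stood at 491 and 218 CPM against 1532 and 755 CPM, and Il10, an anti-inflammatory cytokine gene, at 18.5 and 13.4 CPM against 1121 and 906 CPM. Il1b, the inflammatory cytokine interleukin 1 beta, was not among the lower genes, at 986 and 569 CPM in monocytes and 565 and 252 CPM in macrophages. Ifnb1, which encodes interferon beta, was also among the 10 most unequal, with 12 and 1 UMIs in all monocytes (3.08 and 0.216 CPM) and 622 and 89.5 CPM in macrophages. Erythroid transcripts ran the same way, with 7 of 7 markers lower in monocytes, and 0 of 3 tested were when the marked members and macrophages with such marks were left out. Their sum was 20192 and 76027 CPM in macrophages, and its part in the macrophage levels was not tested.

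Some genes of the osteoclast route, the RANK receptor among them, were lower in monocytes than in macrophages. Of 15 genes of this route tested, 5 were lower, against 10.3% of all genes, and 0 of 13 were higher, against 15.7%. With centring 6 were lower. Against the granulocyte-monocyte progenitors described below, 8 of 13 were at least 2-fold higher in monocytes (14.1% of all genes) and 0 of 12 were lower (7.98%). The list summed to 3446 and 3683 CPM in monocytes, 4685 and 4526 CPM in macrophages and 1070 and 932 CPM in progenitors. Empty barcodes held 3834 and 3190 CPM of it. In monocytes 3 of its 20 genes were at least 2-fold above empty barcodes in both libraries, and the part of free RNA was not tested. Tnfrsf11a, the RANK receptor that receives RANKL, had 44 and 13 UMIs. That was 11.3 CPM (8.21 to 15.2) and 2.81 CPM (1.5 to 4.81) in monocytes and 61.3 CPM (48.0 to 77.2) and 49.99 CPM (39.4 to 62.6) in macrophages. Acp5, the tartrate-resistant acid phosphatase of osteoclasts, stood at 20.6 and 11.2 CPM against 537 and 267 CPM, and was higher in empty barcodes than in monocytes, at 140 and 227 CPM. Trem2, a co-receptor of the fusion pathway, stood at 23.4 and 40.2 CPM against 179 and 142 CPM. The signalling adaptors on the list, Tyrobp and Fcer1g, were abundant in both populations, Tyrobp at 1032 and 1307 CPM in monocytes and 889 and 877 CPM in macrophages. Csf1r was also close, at 226 and 264 CPM against 290 and 362 CPM. Oscar, another co-receptor, had 0 and 1 UMI and Calcr, the calcitonin receptor of mature osteoclasts, 0 and 0 UMIs in the monocytes. The monocytes thus held the M-CSF receptor and the adaptors at levels within 2-fold of the macrophages, and RANK at a lower level in both libraries.

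Against the progenitors the monocytes were higher for many genes of monocyte identity and pattern recognition. The granulocyte-monocyte progenitors (167 and 475 cells, with promyelocytes not set apart) had median depths of 17369 and 20613 UMIs. Of 9674 genes tested, 1367 (14.1%) were at least 2-fold higher in monocytes in both libraries, and of 9483 tested, 757 (7.98%) were lower. Of 18 monocyte genes beyond the rule 15 were higher and 0 of 15 tested were lower, with medians of 2.14 and 2.52 on the log2 scale against -0.17 and -0.04 for the median gene. Lyz2 stood at 5596 and 7835 CPM in monocytes and at 423 and 407 CPM in progenitors. Of the non-classical monocyte genes 7 of 10 tested were also higher and 0 of 7 were lower, and against macrophages 2 of 10 were higher and 1 of 8 was lower. Fcgr1, the high-affinity receptor for antibody, stood at 156 and 88.3 CPM against 3.64 and 1.22 CPM, and Msr1, a scavenger receptor, at 157 and 94.96 CPM against 2.43 and 1.60 CPM. Clec4a1, Clec4a3, Sirpb1c, Ms4a8a, Gpr35, Areg and the adhesion gene Flrt3 completed the leading 10 with Vcan, with lower folds over the libraries between 36.1 for Vcan and 107 for Flrt3. Of 16 pattern recognition and inflammasome genes 11 were higher, among them Clec4e, a receptor for microbial glycolipids, at 1464 and 699 CPM against 419 and 226 CPM. The list of Fc and paired receptors had 7 of 15 genes higher and 2 of 14 tested lower. In the phagocyte oxidase and lysosome list 6 of 14 tested were higher and 0 of 14 were lower. Of 8 S100, annexin and galectin genes 6 were higher, with S100a4 at 587 and 753 CPM against 17.6 and 25.0 CPM. S100a8, which was counted with the neutrophil markers and not in that list, ran the other way, at 1957 and 1897 CPM against 8147 and 9058 CPM, and empty barcodes held 21499 and 26236 CPM of it.

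Transcription factor genes followed the same order, and 10 of 17 tested were higher in monocytes than in progenitors, against 14.1% of all genes. Their list summed to 4546 and 4936 CPM in monocytes, 2029 and 1943 CPM in progenitors and 3944 and 3265 CPM in empty barcodes. Of its 18 genes 1 was at least 2-fold above empty barcodes in both libraries, and the part of free RNA was not tested. Irf5, which drives inflammatory cytokine genes, stood at 190 and 242 CPM against 28.5 and 24.7 CPM, and Klf4, a factor of monocyte differentiation, at 393 and 269 CPM against 38.2 and 34.8 CPM. Spi1, which encodes PU.1, was within 2-fold, at 435 and 458 CPM against 369 and 376 CPM. Gfi1, a granulocyte factor, was the 1 factor called lower of 14 tested, against 7.98% of all genes. It stood at 5.91 and 5.62 CPM against 71.9 and 49.9 CPM. Of 8 progenitor genes 6 were lower in monocytes, against 7.98% of all genes. Ms4a3, a mark of granulocyte-monocyte progenitors, stood at 35.7 and 44.3 CPM against 1131 and 1139 CPM. Myb stood at 42.1 and 48.7 CPM against 338 and 286 CPM. Prom1, Nkg7, Prss57, Ms4a3 and Zc3h12b led this direction. Prom1 had 0 and 4 UMIs in the monocytes (0 and 1 without the marked members) against 37.9 and 46.4 CPM in progenitors. The remaining leading genes were Mogat2, Vcam1, Cxadr, Cebpe and Ffar2.

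Many monocytes carried transcripts of dividing cells. After thinning, 149 of 379 (39.3%, 34.4% to 44.4%) and 187 of 461 (40.6%, 36.0% to 45.2%) had 2 or more UMIs of a list of 12 cell cycle genes. The same share was 59.3% and 62.5% in progenitors, 15.1% and 21.4% in C1q macrophages and 32.1% and 24.6% in B-lineage cells. By this share monocytes lay between macrophages and progenitors in both libraries, with intervals that did not overlap either. Without thinning the shares were 77.6% and 77.7% in monocytes and 79.9% and 65.7% in macrophages, so that in library 1 the order of these populations was then the opposite. Mki67, a nuclear protein of dividing cells, stood at 500 and 621 CPM in monocytes, against 467 and 461 CPM in progenitors and 141 and 334 CPM in macrophages. Of the 12 genes 7 were at least 2-fold higher than in macrophages, against 15.7% of all genes, and 4 with centring, against 848 of 9674 genes. Without the marked members and macrophages with such marks, 11 of the 12 were higher. None of the 12 differed 2-fold from progenitors in either direction, against 14.1% of all genes higher and 7.98% lower. Free RNA held these transcripts too, at 1424 and 1835 CPM for the list in empty barcodes. The list summed to 2205 and 2685 CPM in monocytes, 2503 and 2713 CPM in progenitors and 740 and 1232 CPM in macrophages. By this sum monocytes were close to progenitors. The part of free RNA in the monocyte share was not tested.

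**Figure D3:**
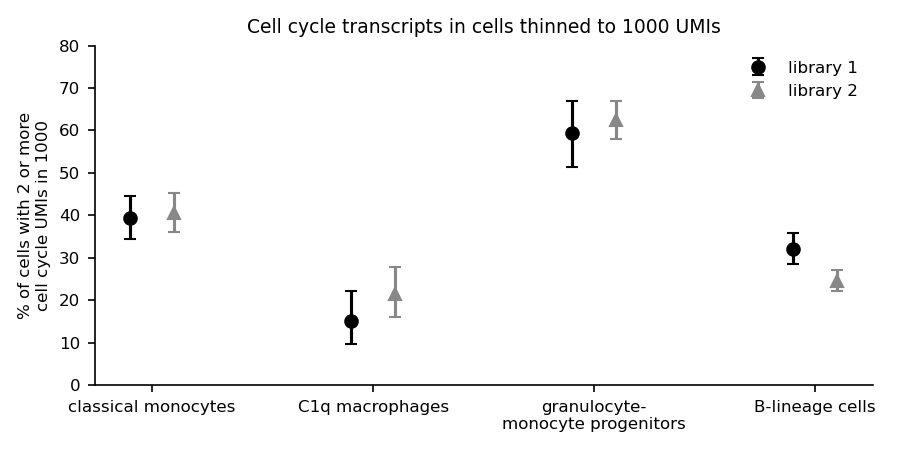
Percent of cells with 2 or more UMIs of 12 cell cycle genes after thinning to 1000 UMIs, by population and library, with exact 95% Clopper-Pearson intervals. The monocytes, at 39.3% and 40.6%, lie between the C1q macrophages and the progenitors.

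The members with cell cycle UMIs were deeper, with medians of 12204 and 11869 UMIs against 6535.5 and 6014.5 in the other members. They were lower in Lyz2, at 4210 and 5462 CPM against 7072 and 10765 CPM. Ms4a3 was higher in them, at 50.3 and 64.2 CPM against 20.2 and 19.8 CPM. Ly6c2 was nearly level, at 3640 and 4159 CPM against 3149 and 4133 CPM. The members with cell cycle UMIs thus held more Ms4a3 and less Lyz2 in both libraries. Ms4a3 is 1 of 8 progenitor genes listed, and others differed less. Without the marked members Cd34 stood at 23.9 and 55.2 CPM with cell cycle UMIs against 23.9 and 34.5 CPM, level in library 1. Igfbp4 then stood at 97.7 and 143 CPM against 84.7 and 96.7 CPM. Genes of DNA replication and mitosis outside the list led the members with cell cycle UMIs. Among them were Esco2, E2f7, Kif14 and Ndc80, between 7.30-fold and 12.2-fold higher. The split was made by cell cycle transcripts, so the lead of such genes follows from that choice and is no separate support. Apoe was among the leading genes on the other side, at 143 and 46.6 CPM with cell cycle UMIs against 675 and 349 CPM, and at 129 and 39.5 CPM against 733 and 379 CPM without the marked members. The platelet genes Pf4 and Ppbp were too, but the 4 and 3 members with megakaryocyte marks held 84.7% and 46.8% of that list's UMIs. Without the marked members Pf4 stood at 101 and 33.9 CPM against 59.4 and 71.6 CPM, so that its direction differed between the libraries.

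Genes of the type I interferon response were higher in the monocytes of library 1. Within the monocytes 614 of 10065 genes (6.1%) were at least 2-fold higher in library 1 and 259 of 10294 (2.52%) in library 2. Of the 18 interferon genes 13 were at least 2-fold higher in library 1 and 0 in library 2, with a median ratio of 2.63. The median gene was level, with library 2 above library 1 by 0.057 on the log2 scale. Rsad2, the antiviral enzyme viperin, stood at 990 CPM (959 to 1022) in library 1 and at 95.8 CPM (87.1 to 105) in library 2. Ifit1, which binds viral RNA, stood at 335 CPM (317 to 353) and 15.8 CPM (12.4 to 19.9), and library 2 gave 10.0 CPM without the members marked for another lineage, basophils or T cells. Isg15, a ubiquitin-like modifier, stood at 598 and 77.4 CPM, and Mx1, an antiviral GTPase, at 206 and 34.0 CPM. Other members of the list did not follow. Ifi27l2a stood at 1271 and 1635 CPM and Bst2 at 332 and 311 CPM. Ifit1bl1, Ifit3b and Ifi208, kin of the listed genes, were among the 10 genes furthest towards library 1.

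**Figure D4:**
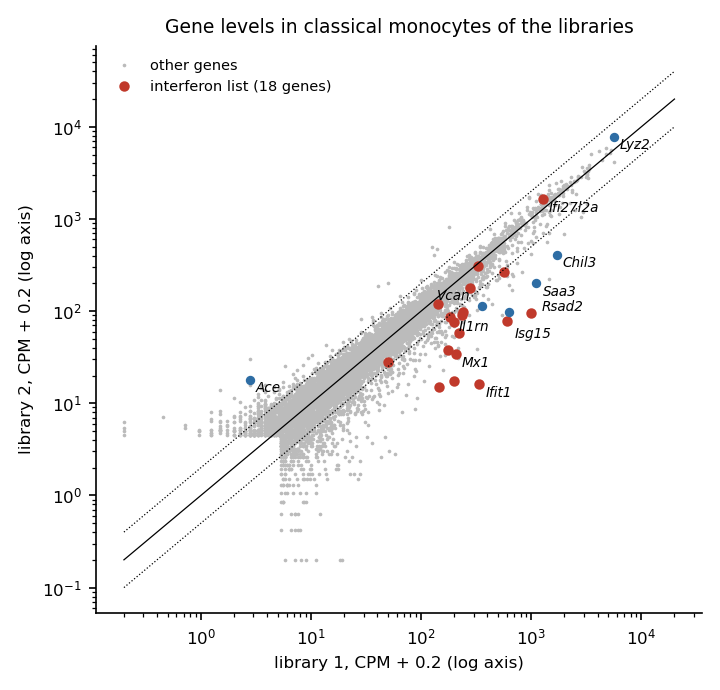
Levels of each gene with at least 20 UMIs in either library in classical monocytes of library 1 against library 2, as CPM plus 0.2 on log axes, with the line of equality and dotted lines at 2-fold. Interferon genes (red) such as Rsad2, Ifit1, Isg15 and Mx1 lie below the lower dotted line, and Ifi27l2a lies near equality.

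Upstream sequences of 3 of these genes are shown because a known letter pattern of interferon-responsive promoters can be read in them. They are the 250 bases before the transcription start in RefSeq on GRCm38.p6, 5′ to 3′ on the gene's strand, for Rsad2 at chr12:26456453-26456702 on the minus strand, Ifit1 at chr19:34640639-34640888 on the plus strand and Isg15 at chr4:156200819-156201068 on the minus strand. Capitals mark each match to GAAANNGAAA on either strand, where N is any base, and the 3 matches in Isg15 overlap.
Rsad2: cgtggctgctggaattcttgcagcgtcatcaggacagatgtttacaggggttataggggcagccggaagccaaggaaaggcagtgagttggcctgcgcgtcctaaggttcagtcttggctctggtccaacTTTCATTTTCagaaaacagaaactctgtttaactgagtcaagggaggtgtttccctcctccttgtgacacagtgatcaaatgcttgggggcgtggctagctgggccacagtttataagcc
Ifit1: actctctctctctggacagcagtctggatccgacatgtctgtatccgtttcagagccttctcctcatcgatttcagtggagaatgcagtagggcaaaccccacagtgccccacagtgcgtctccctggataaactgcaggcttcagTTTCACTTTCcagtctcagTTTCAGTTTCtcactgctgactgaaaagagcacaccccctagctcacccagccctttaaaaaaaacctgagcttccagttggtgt
Isg15: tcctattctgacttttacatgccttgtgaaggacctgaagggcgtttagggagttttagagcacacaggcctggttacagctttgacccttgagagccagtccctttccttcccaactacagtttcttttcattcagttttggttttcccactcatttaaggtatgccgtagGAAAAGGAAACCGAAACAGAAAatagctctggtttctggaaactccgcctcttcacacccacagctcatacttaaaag
In windows of 300 bases, 250 before and 50 after the start, 1079 of 27025 promoters (3.99%) held a match. It was held by 7 of the 12 interferon list genes with an entry (58.3%), by 53 of the 429 genes with an entry that were higher in library 1 (12.4%) and by 4 of the 190 higher in library 2 (2.11%). Of the genes with at least 20 UMIs in the monocytes 4.31% held one in library 1 and 4.20% in library 2. The 5 rule genes held none in this window. A match describes letters and is neither a binding site nor a cause.

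Monocytes rich in interferon transcripts made up a larger share of library 1. Members with 10 or more interferon UMIs of 1000 numbered 89 of 379 (23.5%, 19.3% to 28.1%) in library 1 and 53 of 461 (11.5%, 8.73% to 14.8%) in library 2, and those with 20 or more numbered 41 and 2. The limit of 10 was set after the values were seen, and 25 and 39 members lay just under it with 8 or 9. In C1q macrophages the share with 10 or more was 61.2% and 7.96%, in progenitors 2.40% and 0.211%, and in B-lineage cells 8.86% and 1.38%. Leaving out the members at 10 or more removes UMIs of the same list, and more of them from library 1, so a smaller ratio is fixed by that choice. In the other members 9 of the 18 genes were at least 2-fold higher in library 1, at a median ratio of 1.95. Rsad2 then stood at 143 and 58.8 CPM.

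**Figure D5:**
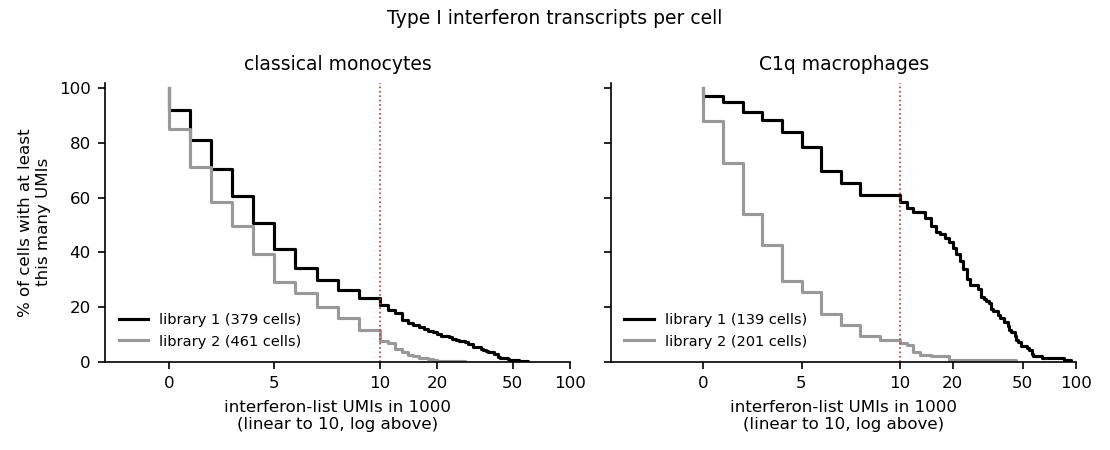
Percent of cells with at least a given number of interferon-list UMIs after thinning to 1000 UMIs, in classical monocytes and C1q macrophages of library 1 (black) and library 2 (grey). The dotted line marks 10 UMIs, reached by 23.5% and 11.5% of monocytes and by 61.2% and 7.96% of macrophages.

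Other cells and free RNA were unequal in the same direction. Rsad2 stood at 7035 and 589 CPM in macrophages, at 232 and 40.2 CPM in progenitors and at 483 and 112 CPM in empty barcodes. The whole list summed to 6361 and 3239 CPM in monocytes, 20119 and 3939 CPM in macrophages, 1960 and 601 CPM in progenitors and 3236 and 1650 CPM in empty barcodes. The sum of the list was thus unequal in empty barcodes in nearly the same ratio as in the monocytes, but single genes were not. Rsad2 was 10.3-fold higher in library 1 in monocytes and 4.30-fold in empty barcodes, and Ifit1 21.2-fold and 3.39-fold. Ifi27l2a, the largest of the list in monocytes, ran the other way there, at 1271 and 1635 CPM, against 464 and 449 CPM in empty barcodes. The part of free RNA in the monocyte values was not tested. Progenitors of both libraries were below the empty barcodes of the same library for Rsad2 and for the whole list. Since the labels give neither library a group, force and any other difference between the pools cannot be told apart.

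Genes outside the list also differed between the interferon-high members and the rest. Their median depth was lower, at 5935 and 5104 UMIs against 9179.5 and 8062. Cxcl10, a chemokine that draws T cells, stood at 4996 and 456 CPM in them against 1009 and 389 CPM in the rest. Without the marked members it stood at 5087 and 375 CPM against 1085 and 411 CPM, so that in library 2 the direction turned. Lyz2 was higher in them, at 7637 and 14519.9 CPM against 5178 and 7395 CPM, and Mki67 was lower, at 331 and 158 CPM against 535 and 651 CPM. Cd34, a progenitor surface protein, was among the genes lowest in them, at 3.03 and 7.01 CPM against 30.02 and 47.9 CPM, with 2 and 2 UMIs. Bglap, a gene of bone-forming cells, stood at 297 and 151 CPM in them against 1601 and 583 CPM. Of the interferon-high members 21 and 6 carried marks of another lineage, basophils or T cells, and of the rest 62 and 75 did. Without these marked members Bglap stood at 239 and 116 CPM against 232 and 91.8 CPM, so that it was no longer lower, and over all monocytes it went from 1379 and 557 CPM to 233 and 93.4 CPM.

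Further monocyte genes were unequal between the libraries. Chil3, a chitinase-like protein of monocytes and neutrophils, stood at 1699 CPM (1658 to 1740) and 409 CPM (391 to 428), and in empty barcodes at 1168 and 773 CPM. Saa3 stood at 1115 and 200 CPM, and in progenitors at 1021 and 239 CPM, also higher in library 1. Il1rn, the interleukin 1 receptor antagonist, stood at 624 and 96.9 CPM, Cxcl10 at 1686 and 394 CPM and Ccl4 at 632 and 191 CPM. Of 19 chemokine, cytokine and growth factor genes 8 were at least 2-fold higher in library 1 (6.1% of all genes), and 2 of 18, Tnfsf12 and Igf1, in library 2 (2.52%). Without the marked members neither was: Tnfsf12 stood at 13.8 and 25.2 CPM, and Igf1 at 4.09 and 1.03 CPM with 13 and 4 UMIs, the other way round. The sum of this list was higher in library 1 in other cells and free RNA too. It was 8197 and 3632 CPM in monocytes, 54368 and 20094 CPM in macrophages, 4990 and 1371 CPM in progenitors and 5845 and 2498 CPM in empty barcodes. Ly6c2, Lyz2 and Csf1r were within 2-fold. Towards library 2, Ace, a gene of non-classical monocytes, stood at 2.57 CPM (1.23 to 4.72) and 17.7 CPM (14.1 to 22.0), with 10 and 82 UMIs, and without the marked members at 1.26 and 17.7 CPM. Adgre4, at 3.60 and 15.6 CPM, and Eno3, at 3.08 and 11.5 CPM, ran the same way. In the non-classical list 3 of 13 genes tested were at least 2-fold higher in library 2 (2.52% of all genes). Another 1 of 10 was higher in library 1 (6.1%), Fabp4 at 12.3 and 5.41 CPM. All 5 megakaryocyte genes were at least 2-fold higher in library 1, and 0 of 3 tested were without the marked members. Pf4 stood at 542 and 89.8 CPM. Without the members that carried marks of another lineage, basophil or T cell, Pf4 stood at 83.0 and 49.3 CPM. Haemoglobin ran towards library 2, with Hbb-bs at 181 and 818 CPM in monocytes (106 and 412 CPM without the marked members) and 2925 and 18775 CPM in empty barcodes. Most of the remaining genes furthest apart rested on few UMIs. Gm37962 had 74 and 0 UMIs, Fam186a 71 and 0, and U90926 42 and 0, while C77080 had 10 and 138 UMIs and Atl1 5 and 64 (3 and 7 without the marked members).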

How the data were processed

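Single-cell libraries were made from alveolar bone digested for 60 min at 37 °C, with red cells lysed for 10 min at 25 °C, per the labels' protocols. The authors deposited raw UMI counts per feature and barcode for 2 libraries, as unfiltered matrices of 1769472 barcodes. FastQC 0.11.9 and the builds GRCh38 and mm10, neither with a role, come from the submitters' processing notes. The aligner and counter were not given in the sources used here. Of 99819 features 57126 carried a mouse Ensembl gene ID (ENSMUSG) and were used, and the other features held 0.602% and 0.431% of UMIs. UMI counts given here, those of the rule included, are over the features used. Rows with the same symbol were summed, and paralogs of nearly the same sequence, such as the Ifit, Ms4a, Ly6 and haemoglobin genes, may share reads. The features used held 77572847 and 116775367 UMIs in all. Free RNA was read from barcodes of at most 100 UMIs.

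The members and all 34 gene lists (344 genes) were chosen with earlier results of these data known. Counts were summed per population and library and given as CPM, with exact Poisson intervals. Shares carry exact 95% Clopper-Pearson intervals, cells were thinned to 1000 UMIs with a fixed seed, and no count of genes carries a test, since each library is 1 pool. Genes named were the 5 rule genes, the 20 most abundant and up to 6 per list, both by the lower CPM of the libraries. Genes at 0 and the 10 leading genes per direction of each comparison were named too. Other list genes that the text names, and genes of the interferon-high and cell cycle splits, were chosen after their values were seen. Some genes that this rule selects are not reported here. No doublet caller was run. Instead, cells with markers of another lineage and the 5% with most UMIs were left out as alternatives. The calling of differences was run on simulated sums with planted changes larger than 2-fold, in genes well above 20 UMIs and with counting noise only. Recovery of changes near 2-fold or near 20 UMIs, and spread between cells, were not tested. Python 3.11.15, numpy 2.4.6, scipy 1.17.1 and pandas 2.3.3 were used. The promoter table was matched by symbol.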

Additional observations from a re-analysis of the deposited data

How the results depend on the processing

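Each library is 1 pool, so no result has a check by replicates, and depth limits genes under 20 UMIs. No paired analysis was possible because each library is a single sample of no stated group. With a minimum of 2000 UMIs the monocyte share was 5.27% in library 1 and 4.40% in library 2, with at least 4 of the 5 rule genes it was 3.05% and 2.97%, and without cells with other lineage markers it was 3.28% and 3.12%. Without basophil- or T-cell-marked members as well, an alternative chosen after seeing the data, it was 3.16% and 3.05%. Centring on the median gene left 848 genes higher in monocytes than in C1q macrophages instead of 1517. Asking for at least 50 UMIs left 452 genes unequal between the libraries instead of 873. Unthinned, the cell cycle share was 77.6% and 77.7%, through more UMIs per cell. The interferon limits were tried after seeing the data. At 20 or more UMIs the interferon-high share was 10.8% and 0.434%, and at 1% of unthinned UMIs it was 20.8% in library 1 and 8.68% in library 2. The cause of the other changes was not tested. The count of 13 interferon genes higher in library 1 ranged from 9, without the interferon-high members, to 14, without cells with other lineage markers or as a mean of each cell's CPM. Of 612 gene levels recomputed for 51 genes, 42 moved by more than 1.5 times, all in 11 genes: Ace, Apoe, Ccl7, Col1a1, Hbb-bs, Ifit1, Mcpt8, Ms4a3, Pf4, Prss34 and Saa3.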
